A study of Anas platyrhynchos with 3 samples.

Results

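Notch signalling genes were followed in messenger RNA of bill skin from Pekin duck (Anas platyrhynchos) embryos. The members were chosen by symbol, as the rows of the deposited gene table named NOTCH1, NOTCH2, DLL1, DLL4, JAG1, JAG2, HES1, HEY1, HEY2 or RBPJ. Of these 10 symbols, 9 had a row among 14938 genes, and HES1 was not analysed here. The skin came from embryos of embryonic day 24 to 26, taken 24 to 48 hours before hatching, when the inner shell membrane had been broken. The single group held 3 libraries, labelled biological replicates 1, 2 and 3, with no mutant, treated or second tissue group. The labels do not say whether each library came from 1 embryo, so errors describe the spread between these samples. The study asked how lamellar cells of touch corpuscles sense touch. Whole bill skin also holds epidermis, dermis, vessels and nerve, so each level below is a level of the tissue and not of any cell type in it.

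Notch receptors are surface proteins that are activated by ligands of the Delta-like and Jagged families on a neighbouring cell. Binding leads to cleavage of the receptor, and its freed intracellular part enters the nucleus and joins RBPJ, a DNA-binding protein, to switch on genes such as those of the HES and HEY repressor families. In mouse skin the pathway is known for its part in keratinocyte differentiation and hair follicle maintenance, and in mouse blood vessels DLL4 guides sprouting and arterial identity.

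Depth was 25268141 to 32247700 counted reads per library. Levels are FPKM, fragments per kilobase of gene scaled to library depth, which can be set side by side for genes of different length. Of all genes, 10605 had at least 1 FPKM in each of the 3 libraries, and all 9 members were among them. The labelled tissue was checked with marker lists. Of 16 keratinocyte genes 12 were measured, and their summed level was 4707 to 5568 FPKM, led by the cell cycle regulator SFN at 1810 ± 131 and the adhesion gene PERP at 1024 ± 157 FPKM. Of 12 dermal fibroblast genes 11 were measured, summing to 3933 to 6913 FPKM, with the matrix genes SPARC at 1417 ± 439 and COL1A2 at 1087 ± 430. None of these markers was at 0 reads. Libraries differed in this makeup. All 11 fibroblast genes were highest in replicate 2, and 10 of 12 keratinocyte genes were lowest there, against 34.0% and 36.6% of the 10605 genes. In bulk tissue, fewer cells of a type and less RNA per cell cannot be told apart.

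The 9 members spanned a 5.89-fold range of level. The Jagged ligands stood at the top, the receptors and HEY1 in the middle, and RBPJ, DLL4, HEY2 and DLL1 below the median gene. The median gene, the median of the 10605 genes in a library, was at 13.3, 13.1 and 13.3 FPKM in replicates 1, 2 and 3. In limma's moderated test of log2(FPKM + 0.1) against the median gene, with Benjamini-Hochberg adjustment over all genes, JAG2, JAG1 and NOTCH2 were higher. These are 3 of 9 members, where 43.7% of all genes tested were higher. RBPJ, DLL4, HEY2 and DLL1 were lower, 4 of 9, where 43.6% of all genes were lower, and NOTCH1 and HEY1 did not pass. The median difference from the median gene was 0.03 on the log2 scale for the members and -0.01 for all genes. The counts rest on which genes define the median gene, and were 5 higher and 3 lower with a minimum of 0.1 FPKM, 5 and 1 with no minimum, and 1 and 5 with a minimum of 5 FPKM, where DLL1 was not tested. The calls of JAG1 (log2 0.12, adjusted p = 0.29) and NOTCH2 (-0.21, 0.14) ended with a minimum of 5 FPKM, that of RBPJ with 0.1 (-0.18, 0.14) and with none (0.23, 0.08), and those of DLL4 (-0.10, 0.64) and HEY2 (-0.12, 0.28) with none. NOTCH1 passed the same limma test as higher with 0.1 (log2 0.43, adjusted p = 0.025) and with none (0.84, 0.0029). With 5 FPKM it passed as lower (-0.57, 0.0038). HEY1 likewise passed as higher with 0.1 (0.61, 0.0057) and with none (1.01, 0.00085), and as lower with 5 FPKM (-0.39, 0.013). With the minimum of 1 FPKM the members' shares lie near the background and say nothing particular about them. With 0.1 FPKM, 5480 of 12451 genes were higher and 5436 lower. With none, 6386 of 14343 were higher and 6456 lower, and with 5 FPKM 3365 of 7888 and 3360. Counts of so few members were not read as a result about them under any minimum.

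**Figure D1:**
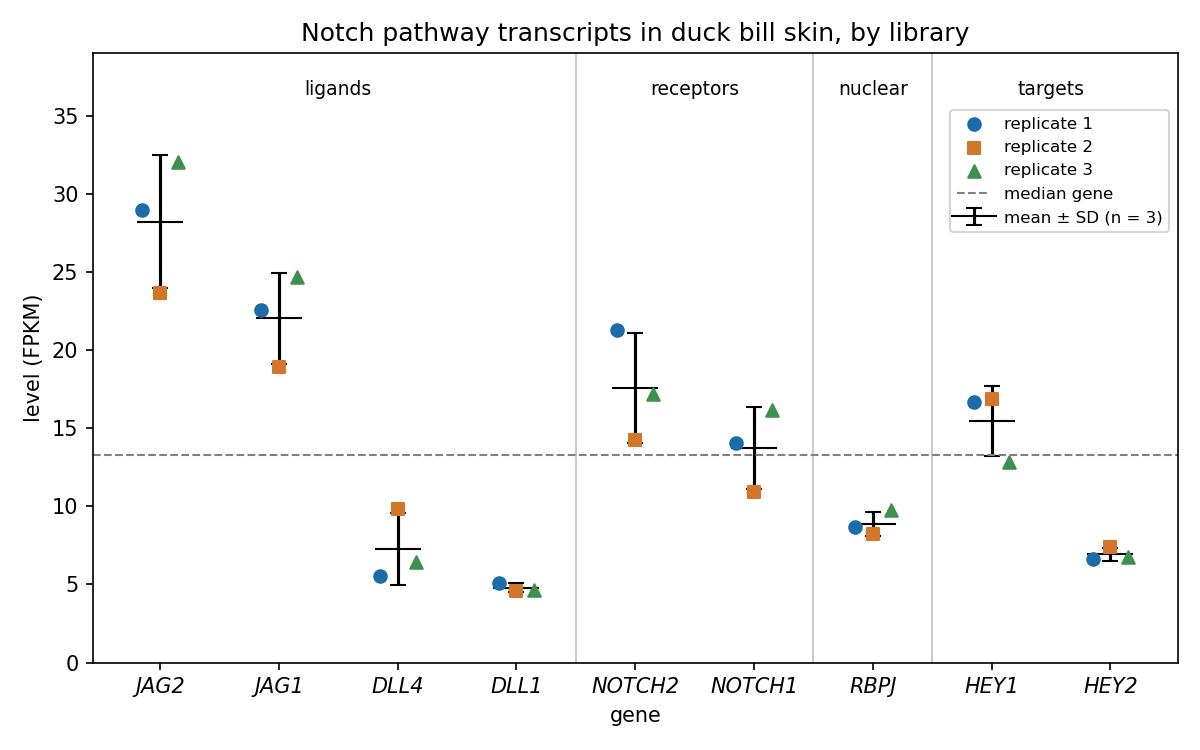
Level in FPKM (vertical axis) of the 9 members by role, with a point for each library, the mean as a bar and the SD as a whisker (n = 3); the dashed line is the median gene at 13.3 FPKM. JAG2 and JAG1 lie above the line in all 3 libraries, and RBPJ, DLL4, DLL1 and HEY2 below it.

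Among the ligands, JAG2 had 28.9, 23.6 and 32.0 FPKM in replicates 1, 2 and 3. JAG2, a Jagged ligand that in mice is needed for limb and palate development, had the highest level of the members in every library. Its mean of 28.2 ± 4.25 FPKM (SD, n = 3) placed it at rank 2918 of all genes. It was 2.11-fold above the median gene (log2 1.08 ± 0.11 SE, limma adjusted p = 0.00015, higher in 3 of 3 libraries).

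JAG1, the other Jagged ligand, mutated in human Alagille syndrome, had 22.6, 18.9 and 24.7 FPKM. It was 1.65-fold above the median gene (log2 0.72 ± 0.11 SE, limma adjusted p = 0.0008, higher in 3 of 3 libraries). Both Jagged genes were lowest in replicate 2 and highest in replicate 3. Their difference within a library hardly moved. JAG2 minus JAG1 was 0.36, 0.32 and 0.38 on the log2 scale, a mean of 0.35 ± 0.03 (SD), which is a 1.28-fold higher level of JAG2. The difference was larger than its spread, although the ranges of the genes over libraries overlapped. Per read rather than per length it was 0.14, since the lengths implied by counts and FPKM are 5207 bases for JAG2 and 6052 for JAG1.

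DLL4, a Delta-like ligand of the vascular endothelium, was highest in replicate 2, where the Jagged genes were lowest. It had 5.52, 9.85 and 6.41 FPKM, from 774, 1352 and 730 reads. Replicate 2 stood 1.78-fold above replicate 1, the widest range of the 9 members, and without replicate 2 the mean of 7.26 ± 2.28 FPKM became 5.96. DLL4 was below the median gene in 3 of 3 libraries (log2 -0.90 ± 0.17 SE, limma adjusted p = 0.0028).

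DLL1, the Delta-like ligand known for somite segmentation in vertebrates, was the lowest member and a steady one. It had 5.10, 4.59 and 4.67 FPKM from 404, 356 and 301 reads. Its coefficient of variation of 5.71% was close to the 5.32% that counting error alone gives at its mean count. It was 2.73-fold below the median gene (log2 -1.45 ± 0.09 SE, limma adjusted p = 1.5e-05, below it in 3 of 3 libraries). DLL4 minus DLL1 was 0.11, 1.09 and 0.45 on the log2 scale, with a mean of 0.55 ± 0.49 (SD). The sign was the same in 3 of 3 libraries but the mean barely exceeded its SD, and it was 0.28 without replicate 2. Per read rather than per length it was 1.37, with implied lengths of 4446 bases for DLL4 and 2513 for DLL1.

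Summed over the 4 ligands, levels were 62.1, 57.0 and 67.8 FPKM. JAG2 made up 45.1 ± 3.15% of this sum, JAG1 35.3 ± 1.84%, DLL4 11.9 ± 4.69% and DLL1 7.72 ± 0.715% (SD, n = 3). The Jagged genes together exceeded the Delta-like genes by 4.85-fold, 2.95-fold and 5.12-fold in replicates 1, 2 and 3, so the lowest ratio was that of replicate 2. DLL4 accounted for 17.3% of ligand FPKM in replicate 2, against 8.89% in replicate 1 and 9.45% in replicate 3.

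**Figure D2:**
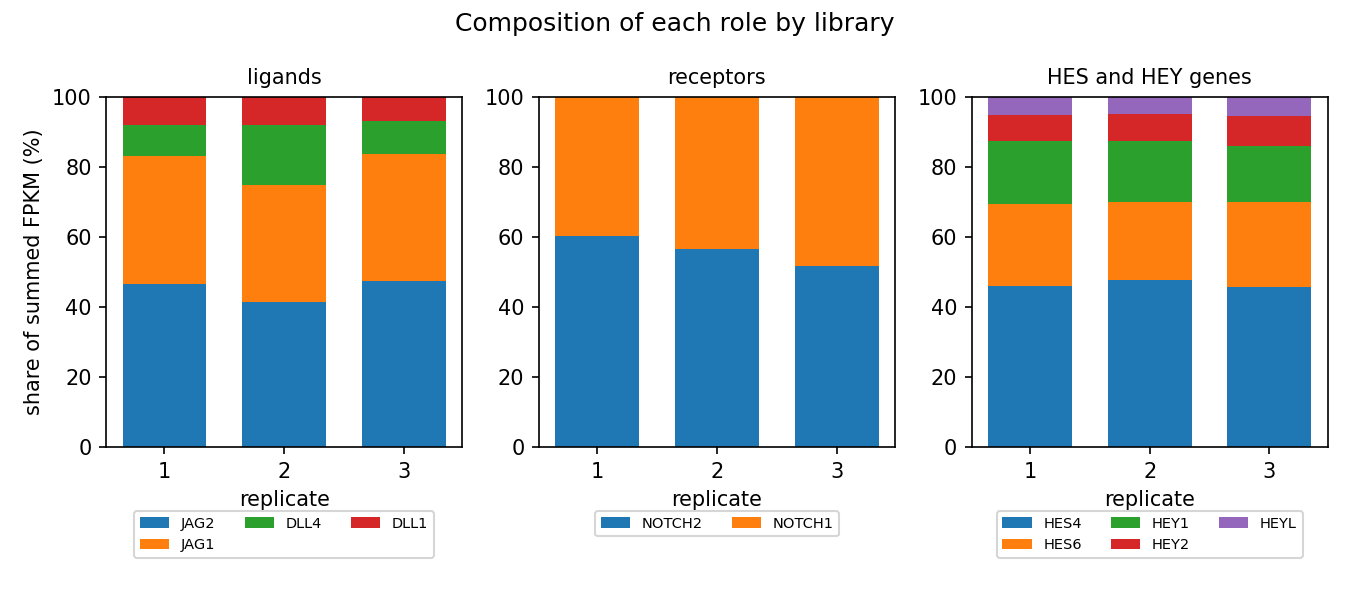
Share of summed FPKM in percent (vertical axis) that each gene took within its role, by replicate (horizontal axis), for ligands, receptors, and the HES and HEY genes; HES5, under 0.1%, is too small to see. DLL4 takes 17.3% of the ligands in replicate 2, NOTCH2 60.3, 56.6 and 51.6% of the receptors, and HES4 45.6 to 47.8% of the HES and HEY genes.

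The receptors were less separated than the ligands. NOTCH2 had 21.3, 14.3 and 17.2 FPKM, highest in replicate 1. It was 1.31-fold above the median gene (log2 0.39 ± 0.13 SE, limma adjusted p = 0.027, higher in 3 of 3 libraries). This call did not hold without replicate 1 (log2 0.26, adjusted p = 0.12) or without replicate 3 (0.42, 0.064). NOTCH1, the receptor most studied in mammalian epidermis and in T cell leukaemia, had 14.0, 10.9 and 16.2 FPKM, highest in replicate 3. It was not apart from the median gene (log2 0.03 ± 0.13 SE, limma adjusted p = 0.82).

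NOTCH2 exceeded NOTCH1 in 3 of 3 libraries, but by unequal amounts. The difference was 0.60, 0.38 and 0.09 on the log2 scale, a mean of 0.36 ± 0.25 (SD). It was 0.23 without replicate 1 and 0.49 without replicate 3, and 0.12 per read rather than per length. NOTCH2 thus made 60.3, 56.6 and 51.6% of receptor FPKM. The ligand sum was 1.76, 2.26 and 2.03 times the receptor sum. These sums cover the receptors NOTCH1 and NOTCH2 only.

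RBPJ, the DNA-binding partner through which cleaved receptors act, had 8.69, 8.24 and 9.74 FPKM. With a coefficient of variation of 8.63%, it was steadier than the median of 11.7% over the 10605 genes. It was 1.49-fold below the median gene (log2 -0.57 ± 0.09 SE, limma adjusted p = 0.0014, below it in 3 of 3 libraries). A low transcript level does not rank its role, since the protein was not measured.

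Of the target genes, HEY1 had 16.7, 16.8 and 12.8 FPKM, from 460, 455 and 288 reads. Its implied length of 875 bases was not checked against a full gene model. The FPKM of HEY1 and its place among the members are uncertain to that extent. HEY1 is a repressor of the basic helix-loop-helix family and a direct Notch target in mammalian endothelium. Replicates 1 and 2 were nearly equal and replicate 3 was lower. HEY1 was not apart from the median gene (log2 0.21 ± 0.12 SE, limma adjusted p = 0.13), and passed the test as higher without replicate 3 (0.36, adjusted p = 0.042).

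HEY2, its paralog, known from heart and artery development in mouse and zebrafish, had 6.64, 7.41 and 6.76 FPKM, from 266, 291 and 220 reads. It was 1.90-fold below the median gene (log2 -0.92 ± 0.09 SE, limma adjusted p = 0.00013, below it in 3 of 3 libraries). HEY1 exceeded HEY2 by 1.32, 1.17 and 0.92 on the log2 scale, a mean of 1.14 ± 0.20 (SD) or 2.20-fold, and their ranges did not overlap. Of the 4 paralogous pairs this difference was the largest per length, but not per read. It rests in part on the lengths implied by the deposited values, 875 bases for HEY1 and 1271 for HEY2, where the median gene of the table has 2670. Per read the difference was 0.60, against 1.37 for DLL4 minus DLL1.

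In order of mean level the members ran JAG2, JAG1, NOTCH2, HEY1, NOTCH1, RBPJ, DLL4, HEY2 and DLL1. Of the 8 steps between neighbours, only those from NOTCH1 to RBPJ and from HEY2 to DLL1 had ranges over libraries that did not overlap. NOTCH1 minus RBPJ was 0.60 ± 0.17 and HEY2 minus DLL1 0.53 ± 0.15 on the log2 scale (SD, n = 3). JAG2 was above JAG1, and JAG1 above NOTCH2, in 3 of 3 libraries. The order of NOTCH2, HEY1 and NOTCH1, and that of RBPJ, DLL4 and HEY2, changed between libraries, with DLL4 above HEY2 in 1 of 3.

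Whether the members differed between the libraries by more than counting error was tested with a chi-square test of the counts, scaled to library size and adjusted over all genes with at least 10 reads. It compares these libraries, not conditions. Of the 9 members 7 differed, which is 77.8%, where 74.5% of 13377 genes did. Only DLL1 (adjusted p = 0.34) and HEY2 (adjusted p = 0.42) gave no difference detectable at this depth. Leaving out replicate 3 ended the calls of RBPJ (adjusted p = 0.12) and HEY1 (adjusted p = 0.91), leaving 5 of 9. The number of all genes called fell as well, from 9965 of 13377 to 7954. With so few members, this fall was not read as a result about them.

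The members did not move together. Replicate 2 had the lowest value of 6 of 9 members, against 36.6% of all genes, and the highest of the other 3, DLL4, HEY1 and HEY2. The chi-square test found no difference between libraries for DLL1 and HEY2, nor between replicates 1 and 2 for RBPJ and HEY1. NOTCH1 deviated from its own mean by 0.05, -0.30 and 0.25 on the log2 scale in replicates 1, 2 and 3. JAG2 deviated by 0.05, -0.24 and 0.19, and JAG1 by 0.04, -0.21 and 0.17. These 3 genes share the order of the libraries with RBPJ, which deviated by -0.03, -0.10 and 0.13. NOTCH2 was also lowest in replicate 2, with 0.29, -0.28 and -0.01.

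The median deviation of the keratinocyte list over the same libraries was 0.08, -0.20 and 0.09, with a summed level of 5568, 4707 and 5364 FPKM. NOTCH1, NOTCH2, JAG1, JAG2, RBPJ, DLL1 and the keratinocyte list were thus all lowest in replicate 2. For DLL1, and for RBPJ between replicates 1 and 2, this order was not beyond counting error in the chi-square test. The part of keratinocyte content in the members' values was not tested.

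DLL4 deviated by -0.34, 0.48 and -0.13, the largest swing of the members, with an SD above that of 91.9% of the genes. Most markers of endothelium, where DLL4 is known to act, were highest in replicate 1, where DLL4 was lowest. Of 14 endothelial genes 13 were measured, none at 0 reads. Highest in replicate 1 were 10 of the 13, against 33.1% of the 10605 genes. The other 3 were highest in replicate 2, against 34.0%. Their summed level was 172, 151 and 138 FPKM, with a median deviation of 0.17, -0.03 and -0.14. PECAM1, an endothelial adhesion molecule, had 52.1, 39.7 and 41.5 FPKM and was lowest in replicate 2, while EGFL7, a secreted endothelial protein, had 17.4, 20.3 and 14.9 and was highest there. The others highest in replicate 2, named after their values were seen, were the transcription factor gene ERG with 6.93, 9.10 and 6.75 FPKM and the receptor gene TEK with 5.09, 5.35 and 3.36. The part of endothelium in the DLL4 level was not tested.

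The median deviation of other lists was highest in replicate 2, as DLL4 was. Fibroblast genes deviated by -0.27, 0.49 and -0.27, with sums of 3933, 6913 and 4033 FPKM. Of 9 smooth muscle and pericyte genes 5 were measured, none at 0 reads, with a median deviation of -0.19, 0.15 and 0.00 and sums of 103, 131 and 116 FPKM. ACTA2, smooth muscle actin, had 61.7, 77.7 and 72.1 FPKM, and the myosin kinase gene MYLK 16.9, 24.6 and 19.7. The list was not uniform, and 2 of its 5 genes were highest in replicate 1, PDGFRB with 6.34, 4.03 and 3.91 FPKM and CSPG4 with 3.32, 2.21 and 2.74, both named after their values were seen. Schwann and lamellar genes, 10 of 12 measured and none at 0 reads, deviated by -0.06, 0.13 and -0.07. They summed to 519, 910 and 543 FPKM. Of this sum the myelin gene PMP22 had 212, 441 and 256 FPKM (mean 303 ± 122) and MBP 182, 333 and 171 (229 ± 90.6). This list was not uniform either. Of its 10 genes 7 were highest in replicate 2 and 3 in replicate 1, against 34.0% and 33.1% of the 10605 genes. In replicate 2, 2 of the 10 were lowest. The part of these cells in the DLL4 level was not tested.

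HEY1 was lowest in replicate 3, with deviations of 0.12, 0.13 and -0.25. Merkel cell genes, 6 of 10 measured and none at 0 reads, were all lowest there as well, against 31.0% of the 10605 genes. They deviated by 0.12, 0.18 and -0.34 and summed to 204, 269 and 140 FPKM, and the secretory granule proteins CHGB and CHGA averaged 143 ± 44.3 and 32.8 ± 18.2 FPKM. Of the 13 endothelial genes, 10 were lowest in replicate 3 too, against 31.0% of the 10605 genes. Skeletal muscle genes also had their lowest median deviation in replicate 3, at -0.66 over 3 tested genes. The Schwann and fibroblast lists had theirs there by a small margin. The Schwann list was at -0.071 against -0.059 in replicate 1, and the fibroblast list at -0.273 against -0.271. Whether any of these cell types bears on HEY1 was not tested.

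**Figure D3:**
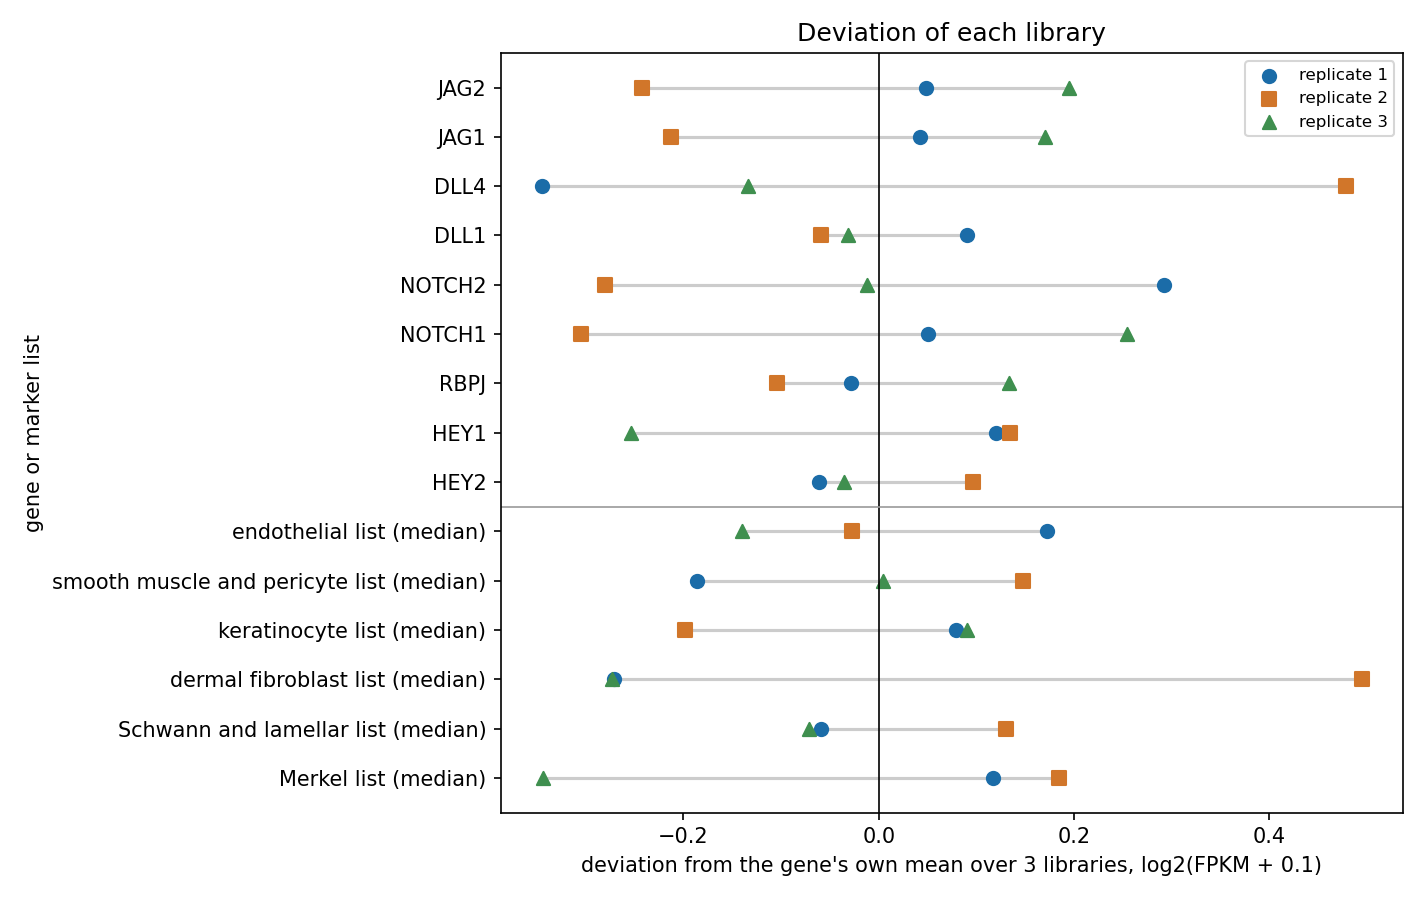
Deviation of each library from the gene's own mean over 3 libraries on the log2(FPKM + 0.1) scale (horizontal axis), for the 9 members (upper rows). The lower rows give the median deviation over the tested genes of each of 6 marker lists, taken library by library. Replicate 2 is lowest for JAG2, JAG1, NOTCH2, NOTCH1, RBPJ, DLL1 and the keratinocyte list, and highest for DLL4 (0.48) and the fibroblast list (0.49).

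The machinery around the members was described with 67 further Notch pathway genes, of which 51 were measured and 45 had at least 1 FPKM in every library. Of these 45, 21 were higher than the median gene and 17 lower in the same limma fit, where 43.7% and 43.6% of all genes were, and 7 did not pass. Their median difference from the median gene was 0.05 on the log2 scale, beside -0.01 over all genes. Replicate 1 was the highest library for 25 of the 45, where it was the highest for 33.1% of all genes. Replicate 2 was the lowest library for 21 of the 45, where it was the lowest for 36.6% of all genes.

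Receptor-like and ligand-like genes came closest to the members in kind. DLK2 and DLK1 encode Delta-like proteins without the domain that activates receptors. DLK2 had 13.9, 13.5 and 13.6 FPKM and was not apart from the median gene, and its counts did not differ between libraries beyond counting error (adjusted p = 0.86). DLK1 was lower, with 8.15 ± 1.05 FPKM. DNER, a ligand-like gene known from neurons, was at 1.47 ± 0.537 and under 1 FPKM in replicate 3.

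Enzymes that add sugars to the receptors were 3 higher and 1 not apart of 4 tested, where 43.7% of all genes were higher. RFNG, a Fringe glycosyltransferase that tunes which ligand a receptor answers to, led with 63.5, 55.9 and 60.5 FPKM, 4.50-fold above the median gene. POGLUT1 and POFUT1, which add glucose and fucose to the receptors, had 30.7 ± 1.92 and 20.2 ± 2.27 FPKM. The other Fringe genes lay below RFNG. LFNG, named after its values were seen, had 12.5 ± 2.51 FPKM and was not apart from the median gene, and MFNG had 4, 5 and 1 reads, or at most 0.0683 FPKM.

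Of 4 tested genes that make ligands competent to pull on receptors, 2 were higher and 1 lower than the median gene. Of all genes 43.7% were higher and 43.6% lower. EPN2, an endocytic adaptor, had 28.4 ± 2.14 FPKM. MIB1, the ubiquitin ligase that acts on Jagged and Delta-like ligands, had 19.5, 20.8 and 24.2 FPKM. It was highest in replicate 3, as JAG1, JAG2 and 32.9% of the 10605 genes were. The other 3 tested genes of this sub-list were highest in replicate 1 and lowest in replicate 3, against 33.1% and 31.0%. A link to the ligands was not tested. The row named MIB2, a related ligase gene, had 11.0 ± 2.25 FPKM over an implied length of 689 bases, and NEURL1 had 0.940 ± 0.329. The gene table pairs a further row each with MIB2 and NEURL1, which was not used here, so these levels are uncertain.

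Of 6 receptor-cleaving genes measured, 3 were higher and 1 lower, where 43.7% and 43.6% of all genes were. ADAM10, the sheddase that makes the first ligand-dependent cut, had 32.0, 28.0 and 31.9 FPKM and was 2.30-fold above the median gene. ADAM17, a related sheddase, had 18.2 ± 1.44 FPKM. Of the 6, 5 were lowest in replicate 2, against 36.6% of all genes. Both receptors and the keratinocyte list were lowest in that library too, and a link between them was not tested.

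Among genes of receptor turnover and inhibition, 3 were higher and 5 lower of 8 tested, where 43.7% and 43.6% of all genes were. NRARP, a Notch target that in turn limits the pathway by binding the receptor's nuclear complex, had 81.4, 58.3 and 63.6 FPKM, 5.04-fold above the median gene, from 4392 to 6915 reads. Its level was above that of all 9 members in every library. It was highest in replicate 1, as NOTCH2 was, while NOTCH1 was highest in replicate 3. Of the 45 further pathway genes tested, 25 were highest in replicate 1, against 33.1% of all genes. A link to the receptors was not tested. NUMB, an adaptor that inhibits Notch in dividing cells, had 19.6 ± 0.592 FPKM, and the row paired with DTX4, a Deltex ubiquitin ligase, 18.6 ± 1.20. The row paired with DTX1 was at 0.297 ± 0.0567 FPKM, from 15, 19 and 11 reads.

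Of the nuclear partners of RBPJ, coactivators were 2 higher and 5 lower of 7 tested, where 43.7% and 43.6% of all genes were. SNW1, which is also a splicing factor, had 47.8 ± 1.26 FPKM, the acetyltransferase gene KAT2B 25.3 ± 0.786 and CREBBP 10.4 ± 1.27. Corepressors were 5 higher and 3 lower of 10 tested, beside the same shares. Whether either sub-list departs from these shares was not tested. The histone deacetylase genes HDAC2 and HDAC1 had 152 ± 11.7 and 46.0 ± 4.48 FPKM, and CTBP1 73.1 ± 4.17. Many of these proteins serve other transcription factors as well. RBPJL, a relative of RBPJ known from mammalian pancreas, had 0 reads in all 3 libraries.

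Besides HEY1 and HEY2, further genes of the HES and HEY kind were transcribed. HES4 had 42.0, 46.3 and 36.6 FPKM, which is above both HEY genes in every library and 3.12-fold above the median gene. BHLHE40, a relative that also answers to the clock and to low oxygen, was at 26.1, 58.1 and 45.2 FPKM and was lowest in replicate 1. The row paired with HES6 had 20.8 ± 1.07 FPKM. HEYL, named after its values were seen, had 4.84, 4.76 and 4.43 FPKM over an implied length of 714 bases, which was not checked against a full gene model, and the row paired with HES5 had 1, 3 and 2 reads.

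Over HES4, HES5, HES6, HEY1, HEY2 and HEYL the summed level was 91.5, 97.0 and 80.3 FPKM. HES4 made 46.4 ± 1.19% of it, HES6 23.3 ± 1.09%, HEY1 17.2 ± 1.12%, HEY2 7.77 ± 0.591% and HEYL 5.24 ± 0.305% (SD, n = 3). These shares rest on the implied lengths, and HES1 does not enter them.

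**Figure D4:**
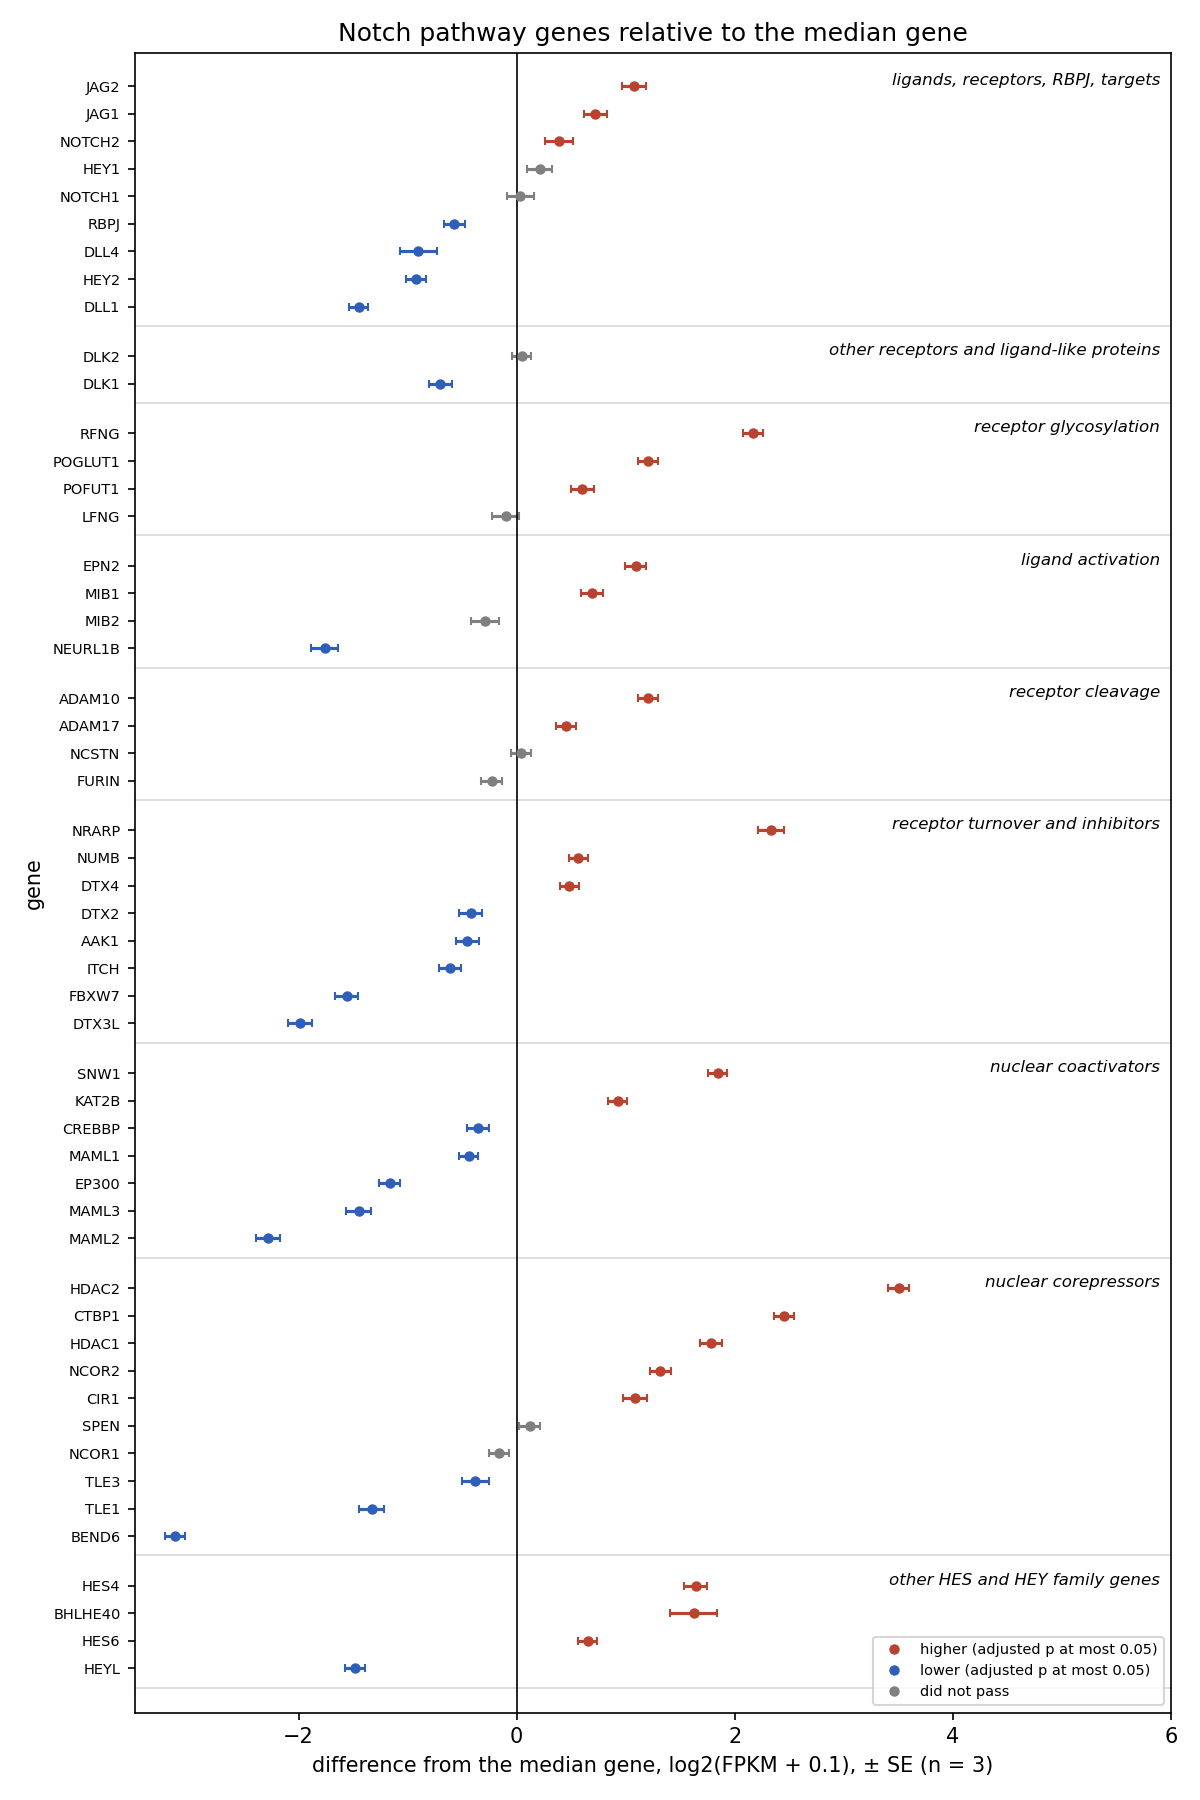
Difference from the median gene on the log2(FPKM + 0.1) scale with its SE (horizontal axis, n = 3) for the 9 members and 43 of the 45 further pathway genes tested, grouped by role (2 are not shown); red marks genes higher and blue genes lower at an adjusted p of at most 0.05 in limma, grey those that did not pass. The members run from JAG2 at 1.08 to DLL1 at -1.45.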

How the data were processed

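Bill skin RNA of 3 libraries was isolated with TRIzol, selected with oligo-dT beads and made into stranded libraries, per the labels' protocols. The authors deposited raw counts per gene and FPKM, as named per the file headers. CASAVA 1.8.2, Trimmomatic 0.36, STAR 2.5.4b, Subread 1.6.2 with featureCounts, and edgeR 3.22.3 are named without roles, per the submitters' processing notes. The genome build is not given in the sources used here, and no coordinates are printed.

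Count and FPKM gave a whole gene length, within 0.01 bases, for 100% of 14343 genes once edgeR's TMM factors were applied, so the deposited FPKM carry TMM scaling. Of 3347 identifiers without a symbol, 730 took one by gene number from the gene table of the IASCAAS_PekinDuck_T2T assembly, which was used for names only. Among the named genes, DTX1, DTX4, HES5, HES6, CSPG4 and CD3D come from it.

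Tests were two-sided with a threshold of 0.05 on the adjusted p and ran in R 4.3.3 with edgeR 4.0.16 and limma 3.58.1. The limma fit used log2(FPKM + 0.1), minus the library's median gene, over genes that reached 1 FPKM in each library; this scale understates folds of low genes. The chi-square test used counts with TMM-scaled library sizes and 2 degrees of freedom. Differences between paralogs are given with their SD, and no test was run on them. Named are all members, the 3 highest genes of each pathway sub-list and those under 1 FPKM, and the 2 highest of each cell type list. Leukocyte markers (9 of 10 measured) summed to 19.7 to 32.4 FPKM, with CD74 at 8.52 ± 5.17 and CD3D at 6.15 ± 0.474, and of the skeletal muscle list (9 of 11 measured, 21.8 to 75.8 FPKM) MYOD1, MYOG, MYF5 and MYF6 had 0 reads, with MYL1 at 31.4 ± 20.8 and ACTA1 at 11.1 ± 3.87 FPKM. A result that the naming rule calls for is not reported here. The members and lists were chosen with earlier results of these data known. Alternatives covered the pseudocount, minimum, test, scaling and each replicate. Figures used Python 3.11.15 and matplotlib 3.10.9.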

Additional observations from a re-analysis of the deposited data

How the results depend on the processing

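Directions relative to the median gene depended on which genes define it. The median gene lay at 13.2 FPKM with the minimum of 1 FPKM, at 10.04 with 0.1 (a log2 shift of -0.40), at 7.54 with none (-0.80) and at 20.1 with 5 (0.60). Members higher than it numbered 3, against 5 with a minimum of 0.1 or none and 1 with 5 FPKM, and the 4 lower became 1 with none. Further pathway genes higher numbered 33 with none, 24 with 0.1 and 14 with 5 FPKM, against 21. Those lower numbered 14 with none, 13 with 0.1 and 16 with 5 FPKM, against 17. In the main setting 45 were tested. The number tested changes with the minimum, so these counts are not shares and were not read as a result. Over all genes, 6386 of 14343 were higher with none, 5480 of 12451 with 0.1 and 3365 of 7888 with 5 FPKM. This compares with 4636 of 10605 in the main setting. Lower were 6456 with none, 5436 with 0.1 and 3360 with 5 FPKM, against 4619. With a minimum of 5 FPKM the log2 value turned to -0.57 for NOTCH1, -0.21 for NOTCH2, -0.39 for HEY1, -0.55 for DLK2, -0.15 for ADAM17, -0.038 for NUMB and -0.12 for DTX4, and DLL1 was not tested. With none it turned to 0.23 for RBPJ, 0.10 for DLK1, 0.70 for LFNG, 0.51 for MIB2 and 0.45 for CREBBP. With 0.1 it turned to 0.30 for LFNG, 0.11 for MIB2 and 0.038 for CREBBP. Levels and their order do not depend on the minimum. The counts of 3 and 4 members held with pseudocounts of 1 and 0.01 and in edgeR's quasi-likelihood test on counts. They were also the same without TMM scaling. Subtracting the library's median gene nearly cancels that scaling, so this setting could not test the counts. Leaving out a replicate gave 2 to 3 members higher, 4 lower and 5 to 7 differing between libraries. Over all genes it gave 4448 to 4613 higher, 4411 to 4616 lower and 6660 to 7954 differing, against 4636, 4619 and 9965. Shares are not given, since the number of genes tested changes too. The chi-square counts of 7 members held with DESeq2 1.42.0 size factors, library totals and no minimum. Per read instead of per length, the log2 difference was 0.14 for JAG2 and JAG1, 1.37 for DLL4 and DLL1, and 0.60 for HEY1 and HEY2. No paired analysis was possible because there is 1 group. At 220 to 460 reads, DLL1, HEY1 and HEY2 carry a counting error of 4.99 to 6.21%.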
